A study of Pagiophloeus tsushimanus with 15 samples.

Results

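The mevalonate pathway and its first isoprenoid steps were followed in whole larvae of the weevil Pagiophloeus tsushimanus fed diets with or without EO or D-camphor. The members are the assembled transcript groups (unigenes) whose protein description named hydroxymethylglutaryl-CoA synthase or reductase, mevalonate, isopentenyl-diphosphate, or farnesyl or geranylgeranyl pyrophosphate synthase. Of 34486 unigenes in the table, 10 held one of these 6 phrases, and a limit of 10 by mean level removed none of them, so the members were chosen by their descriptions, with a ranking on mean TPM over the same libraries that played no part. There were 5 diets with 3 RNA-seq libraries each, 15 in all: EO at 10 mg/g, EO at 30 mg/g, D-camphor at 17 mg/g, D-camphor at 41 mg/g, and the untreated diet. Those with EO or D-camphor are called terpenoid diets here. The labels do not spell out EO, D-camphor is a bicyclic monoterpenoid, and the sources used here give neither the age of the larvae nor whether a library holds 1 larva or a pool. The question the design poses for these genes is whether eating a terpenoid diet goes with a different transcript level of the enzymes that make the larva's own isoprenoids. Levels are given as TPM, a share of all transcripts in a library that is corrected for transcript length and can be compared between genes.

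The mevalonate pathway joins acetyl-CoA units into hydroxymethylglutaryl-CoA (HMG-CoA), reduces it to mevalonate, and then phosphorylates and decarboxylates mevalonate to isopentenyl diphosphate, the building block of all isoprenoids. Insects do not make sterols of their own from it. In them it feeds juvenile hormone, dolichol, ubiquinone and the prenyl anchors of proteins, and in bark beetles also monoterpenoid pheromones.

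The label was borne out only in part. Of the 10 unigenes, 5 matched beetle proteins best, 2 matched arachnids and 3 matched animals that are not arthropods. The 4 with a mean of at least 1 TPM all matched bark beetles (Dendroctonus), and these 4 were tested: mevalonate kinase, phosphomevalonate kinase, diphosphomevalonate decarboxylase and isopentenyl-diphosphate isomerase. The other 6 lay under 1 TPM. The phrases matched no HMG-CoA reductase and no geranylgeranyl pyrophosphate synthase, and the only HMG-CoA synthase and farnesyl pyrophosphate synthase rows matched a scorpion, a lancelet and a sea urchin. Unigenes matching the HMG-CoA synthase and reductase of the bark beetle Ips pini were present under other wording and are described beside the members. A description names the most similar protein of another species, not a measured function.

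None of the 4 tested enzymes passed the test on any diet. With limma and Benjamini-Hochberg adjustment at 0.05, 0 of 4 were called on EO at 10 mg/g against untreated larvae, where 0.0719% of the 12510 tested unigenes were called, and 0 of 4 on EO at 30 mg/g, where 0.184% were. On D-camphor at 17 mg/g and at 41 mg/g, 0 of 4 were called at each dose, beside 0.04% and 0.016% of the tested unigenes. With the 4 terpenoid diets averaged and set against untreated larvae, 0 of 4 were called beside 0.0879%. In the step from the lower to the higher dose, 0 of 4 were called for EO beside 0.00799%, and 0 of 4 for D-camphor beside 0%. For EO against D-camphor at both doses 0 of 4 were called beside 0.048%, and for any difference among the 5 diets 0 of 4 beside 0.0719%. At an unadjusted p under 0.05, 1 of 4 passed by limma on D-camphor at 41 mg/g, beside 6.24% of the tested unigenes. In the other 8 comparisons 0 of 4 passed that unadjusted level by limma. The background there was 6.31% on EO at 10 mg/g, 8.8% on EO at 30 mg/g, 6.24% on D-camphor at 17 mg/g and 6.15% for the averaged diets, 4.97% and 9.51% for the dose steps of EO and of D-camphor, 10.6% for EO against D-camphor and 8.83% for any difference. The 32 changes between diets of the 4 enzymes ran from -0.58 to 0.47 on the log2(TPM + 1) scale, with adjusted p from 0.501 to 0.999 by limma and Benjamini-Hochberg adjustment. In whole bodies, a tissue making up less of the larva and less RNA per cell of that tissue cannot be told apart.

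**Figure D1:**
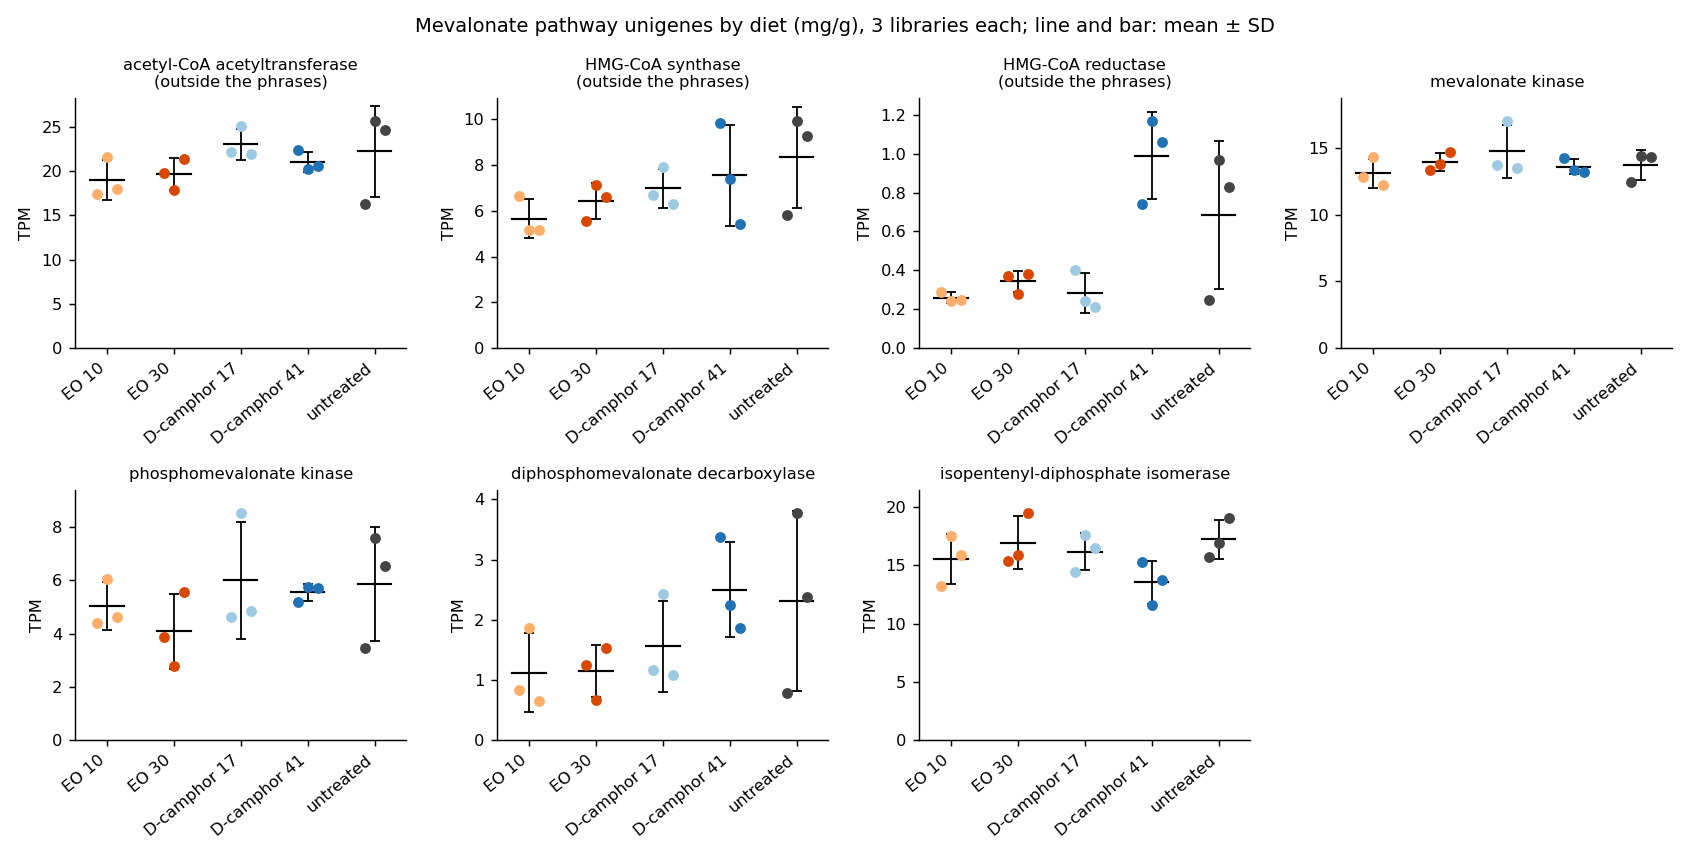
TPM of 7 unigenes in pathway order, 1 point per library, with the diets along the x axis in mg/g and a line and bar for the mean ± SD of 3 libraries. Mevalonate kinase kept between 12.21 and 17.05 TPM in all 15 libraries, while diphosphomevalonate decarboxylase ran from 0.65 to 3.78 TPM, with untreated larvae at both 0.79 and 3.78 TPM.

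Mevalonate kinase, which adds the first phosphate to mevalonate, was the steadiest member (TRINITY_DN9766_c0_g2). It stood at 12.81, 14.3 and 12.21 TPM on EO at 10 mg/g and at 13.33, 13.79 and 14.68 TPM on EO at 30 mg/g. On D-camphor it had 13.75, 17.05 and 13.49 TPM at 17 mg/g and 14.25, 13.39 and 13.18 TPM at 41 mg/g, against 12.47, 14.41 and 14.31 TPM in untreated larvae. Every diet overlapped the untreated range, and the single high library was replicate 2 of D-camphor at 17 mg/g. The coefficient of variation over the 15 libraries was 8.33%. The log2 difference from untreated larvae was -0.06 on EO at 10 mg/g, 0.02 on EO at 30 mg/g, 0.09 on D-camphor at 17 mg/g and -0.01 on D-camphor at 41 mg/g, each with a standard error of 0.11. The 95% intervals of TPM + 1 relative to untreated larvae reached from 0.813 at the lowest to 1.26 at the highest over the 4 diets. Differences larger than these bounds are outside the intervals, while smaller ones are not resolved with 3 libraries per diet.

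Phosphomevalonate kinase adds the second phosphate (TRINITY_DN8295_c0_g1). It had 4.39, 6.05 and 4.61 TPM on EO at 10 mg/g and 3.88, 2.79 and 5.57 TPM on EO at 30 mg/g. It had 4.62, 8.54 and 4.86 TPM on D-camphor at 17 mg/g and 5.19, 5.75 and 5.71 TPM on D-camphor at 41 mg/g, against 3.45, 7.58 and 6.52 TPM in untreated larvae. The untreated libraries alone spanned most of the range, so that all 4 diets overlapped them. The means were 5.02 ± 0.902 TPM and 4.08 ± 1.40 TPM at the lower and higher dose of EO, 6.01 ± 2.20 TPM and 5.55 ± 0.312 TPM at the lower and higher dose of D-camphor, and 5.85 ± 2.14 TPM in untreated larvae (SD, n = 3 each). The largest difference from untreated larvae was on EO at 30 mg/g, -0.41 on the log2 scale (standard error 0.27, adjusted p = 0.645 by limma and Benjamini-Hochberg adjustment), with an interval of 0.497 to 1.13 for TPM + 1 relative to untreated.

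Diphosphomevalonate decarboxylase, which turns the product of the second kinase into isopentenyl diphosphate, was the least abundant and most variable of the 4 (TRINITY_DN5147_c0_g1). It had 0.84, 1.87 and 0.65 TPM on EO at 10 mg/g, and 1.24, 0.67 and 1.53 TPM on EO at 30 mg/g. D-camphor gave 1.16, 2.43 and 1.08 TPM at 17 mg/g and 3.38, 2.25 and 1.87 TPM at 41 mg/g, against 0.79, 3.78 and 2.37 TPM in untreated larvae. The EO libraries were at or under 1.87 TPM, but untreated replicate 1 lay among the lowest of them, so the groups overlapped. The mean was 1.12 ± 0.656 TPM on EO at 10 mg/g, 1.15 ± 0.438 TPM on EO at 30 mg/g, 1.56 ± 0.757 TPM on D-camphor at 17 mg/g, 2.50 ± 0.785 TPM on D-camphor at 41 mg/g and 2.31 ± 1.5 TPM in untreated larvae (SD, n = 3 each). The log2 differences from untreated larvae were -0.58, -0.54, -0.30 and 0.17 in that order of diets, each with a standard error of 0.35, and the adjusted p by limma and Benjamini-Hochberg adjustment was 0.713, 0.644, 0.992 and 0.998. EO against D-camphor, over both doses, gave -0.49 (standard error 0.25, unadjusted p = 0.0732, adjusted p = 0.501 by limma), the smallest adjusted p among the 32 tests of the 4 enzymes. Without untreated replicate 1 the differences of EO from untreated larvae became -0.96 at 10 mg/g (adjusted p = 0.292 by limma) and -0.92 at 30 mg/g (adjusted p = 0.223 by limma), and that of D-camphor at 41 mg/g changed sign to -0.22. These were one end of the range over the 22 alternative fits that held this unigene. The other end was -0.26 on EO at 10 mg/g, -0.22 on EO at 30 mg/g and 0.49 on D-camphor at 41 mg/g.

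Isopentenyl-diphosphate isomerase interconverts isopentenyl and dimethylallyl diphosphate, the pair from which longer chains are built, and was the most abundant member (TRINITY_DN16583_c0_g1). On EO it had 13.22, 17.54 and 15.9 TPM at 10 mg/g and 15.41, 15.92 and 19.53 TPM at 30 mg/g. On D-camphor it had 14.44, 17.62 and 16.48 TPM at 17 mg/g and 15.28, 11.64 and 13.74 TPM at 41 mg/g, against 15.7, 16.95 and 19.03 TPM in untreated larvae. All 3 libraries of D-camphor at 41 mg/g lay below all 3 untreated libraries, the closest being 15.28 and 15.7 TPM, and the other diets overlapped the untreated range. This was 1 of 4 tested members whose groups did not overlap in that comparison, in a background where 9.95% of the tested unigenes did not overlap and 6.54% were lower without overlap. For the other diets 0 of 4 were free of overlap, beside 9.95% on EO at 10 mg/g, 10.2% on EO at 30 mg/g and 11.1% on D-camphor at 17 mg/g. Between the doses of an additive, 0 of 4 were free of overlap, beside 8.55% for EO and 21.4% for D-camphor. The mean was 13.6 ± 1.83 TPM on D-camphor at 41 mg/g and 17.2 ± 1.68 TPM in untreated larvae (SD, n = 3 each). The log2 difference was -0.33 (standard error 0.14, unadjusted p = 0.0394), with an adjusted p of 0.776 by limma and Benjamini-Hochberg adjustment, so it did not pass the threshold. It came to -0.23 without the 3 libraries with the highest scores on the first principal component, EO at 10 mg/g replicate 1, EO at 30 mg/g replicate 1 and D-camphor at 41 mg/g replicate 2 (adjusted p = 1 by limma). The last of these scored 33.7 and held the lowest isomerase value. At the other end, untreated replicate 2 at -36.4 and EO at 10 mg/g replicate 2 at -34.9 lay farther out and were kept. Against D-camphor at 17 mg/g the difference was -0.24 (adjusted p = 0.639 by limma), and the ranges of the 2 doses overlapped.

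**Figure D2:**
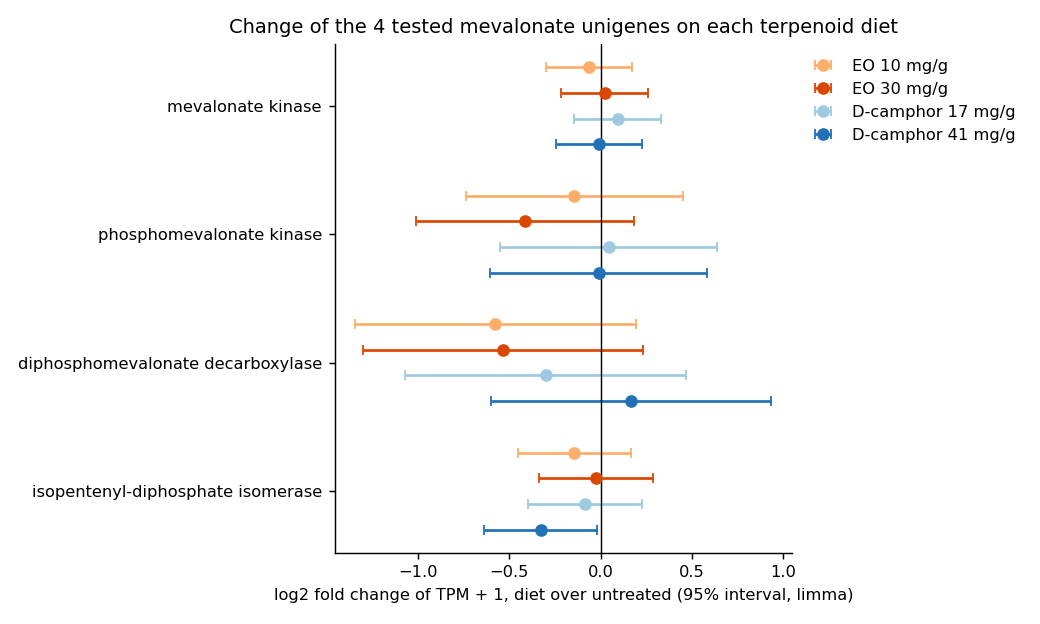
Log2 difference of TPM + 1 from untreated larvae for the 4 tested enzymes on each of the 4 terpenoid diets, with bars for the 95% interval from limma. The interval of isopentenyl-diphosphate isomerase on D-camphor at 41 mg/g ends just below 0, and the other 15 intervals hold 0.

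As a group the 4 enzymes followed the middle of all tested unigenes on most diets. Their median log2 difference from untreated larvae was -0.14 on EO at 10 mg/g, where the median over all tested unigenes was -0.12, and -0.22 against -0.06 on EO at 30 mg/g. It was -0.02 beside 0.03 on D-camphor at 17 mg/g, and -0.01 beside -0.04 on D-camphor at 41 mg/g. Members above 0 numbered 0, 1, 2 and 1 of 4 in that order of diets. With median-of-ratios scaling these became 3, 2, 2 and 3 of 4, so no common direction is given for them. That scaling moved the median of all tested unigenes by 0.14 on EO at 10 mg/g.

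The step before the kinases was read from unigenes under other wording, which were looked up by name and are no members. Cytosolic acetyl-CoA acetyltransferase, which joins the first acetyl-CoA units, averaged 21 TPM (TRINITY_DN8684_c0_g1). Its log2 difference from untreated larvae was -0.20, -0.15, 0.07 and -0.05 in the order EO 10, EO 30, D-camphor 17 and D-camphor 41 mg/g, with a standard error of 0.16 and adjusted p of 0.733 or more by limma. The HMG-CoA synthase matching Ips pini (TRINITY_DN3461_c0_g1) had 6.62, 5.15 and 5.16 TPM on EO at 10 mg/g and 5.56, 7.13 and 6.59 TPM on EO at 30 mg/g. It had 6.7, 7.92 and 6.3 TPM on D-camphor at 17 mg/g and 9.82, 7.4 and 5.4 TPM on D-camphor at 41 mg/g, against 5.8, 9.93 and 9.25 TPM in untreated larvae. EO at 10 mg/g was low in all 3 libraries, yet untreated replicate 1 lay inside its range. The log2 difference there was -0.47 (standard error 0.21, unadjusted p = 0.0469, adjusted p = 0.713 by limma). HMG-CoA lyase, which breaks HMG-CoA down in mitochondria, averaged 4.14 TPM and differed from untreated larvae by -0.11 to 0.08 on the log2 scale.

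HMG-CoA reductase makes mevalonate and is the step at which the pathway is classically controlled. The unigene matching the Ips pini enzyme (TRINITY_DN12108_c0_g2) averaged 0.512 TPM, under the level needed for testing. It had 0.29, 0.24 and 0.25 TPM on EO at 10 mg/g and 0.37, 0.28 and 0.38 TPM on EO at 30 mg/g. It had 0.4, 0.24 and 0.21 TPM on D-camphor at 17 mg/g and 0.74, 1.17 and 1.06 TPM on D-camphor at 41 mg/g, against 0.25, 0.97 and 0.83 TPM in untreated larvae. All libraries of D-camphor at 41 mg/g lay above all those of EO and of D-camphor at 17 mg/g, and overlapped the untreated ones, whose replicate 1 was low. With no filter, D-camphor at 41 mg/g against 17 mg/g gave a log2 difference of 0.63 (standard error 0.17, unadjusted p = 0.00232, adjusted p = 0.374 by limma over 34452 unigenes). Among the tested unigenes, 21.4% had doses of D-camphor that did not overlap, and in 5.61% the higher dose lay above. Those shares hold for unigenes averaging 1 TPM or more, and this one lay under that level. The share free of overlap between D-camphor at 41 mg/g and EO was not counted. Differences from untreated larvae were -0.39, -0.30, -0.37 and 0.26 in the order EO 10, EO 30, D-camphor 17 and D-camphor 41 mg/g, none past the threshold (adjusted p = 0.702 or more by limma). These log2(TPM + 1) differences understate ratios at such low levels.

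The kinases and the decarboxylase varied together between libraries. Of 21 pairs among the 7 beetle-matched pathway unigenes, 7 passed an adjusted p of 0.05 by both Pearson's and Spearman's coefficient, with permutation tests of 100000 resamples over 15 libraries and adjustment over 35 relations. Phosphomevalonate kinase and diphosphomevalonate decarboxylase gave Pearson's r = 0.788 (permutation p = 0.00043, adjusted p = 0.00385) and Spearman's rho = 0.844 (permutation p = 0.00014, adjusted p = 0.0049). The relation stayed at r = 0.789 without the 2 libraries farthest from the median of the kinase, and was 0.861 on deviations from the diet means. Acetyl-CoA acetyltransferase followed both of them, with r = 0.835 for phosphomevalonate kinase (permutation p = 0.00014, adjusted p = 0.00385) and r = 0.814 for the decarboxylase (permutation p = 0.00026, adjusted p = 0.00385). Spearman's rho was 0.804 for each (permutation p = 0.00047 and 0.00051, adjusted p = 0.00595 for both), and r without the 2 farthest libraries was 0.824 and 0.782. Mevalonate kinase followed phosphomevalonate kinase at r = 0.670 (permutation p = 0.00642, adjusted p = 0.0225) and rho = 0.675 (permutation p = 0.00739, adjusted p = 0.0216), with r = 0.556 without the 2 farthest libraries. The libraries share a further property, the number of unigenes over 1 TPM, which ran from 11478 to 13659. That number correlated with 5 of the 7 unigenes, at r = 0.604 for mevalonate kinase, 0.624 for phosphomevalonate kinase, 0.653 for the decarboxylase, 0.691 for the acetyltransferase and 0.709 for HMG-CoA synthase (adjusted permutation p from 0.0197 to 0.0345). Its part in the shared variation was not tested. The share of pairs that pass among all unigenes was not computed, so the 7 of 21 are not shown to be particular to the pathway. Unigenes outside the pathway were closer to the decarboxylase than any other of the 7, at r up to 0.949.

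Isopentenyl-diphosphate isomerase did not pass with phosphomevalonate kinase (r = 0.282, permutation p = 0.3095, adjusted p = 0.361; rho = 0.407, adjusted p = 0.194) or with the decarboxylase (r = 0.147, permutation p = 0.6045, adjusted p = 0.641; rho = 0.202, adjusted p = 0.542). On deviations from the diet means these were r = 0.580 and r = 0.554. With mevalonate kinase it passed by Spearman's rho of 0.704 (permutation p = 0.00418, adjusted p = 0.0199) and not by Pearson's r of 0.506 (permutation p = 0.05641, adjusted p = 0.116), which was 0.637 without the 2 farthest libraries. It varied with the first principal component of all tested unigenes, which held 23.5% of the variance. There r was -0.717 (permutation p = 0.00252, adjusted p = 0.0176) and rho -0.782 (permutation p = 0.00087, adjusted p = 0.00742), and r was -0.81 both without the 2 farthest libraries and within diets. The isomerase is itself 1 of the 12510 unigenes behind that component.

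**Figure D3:**
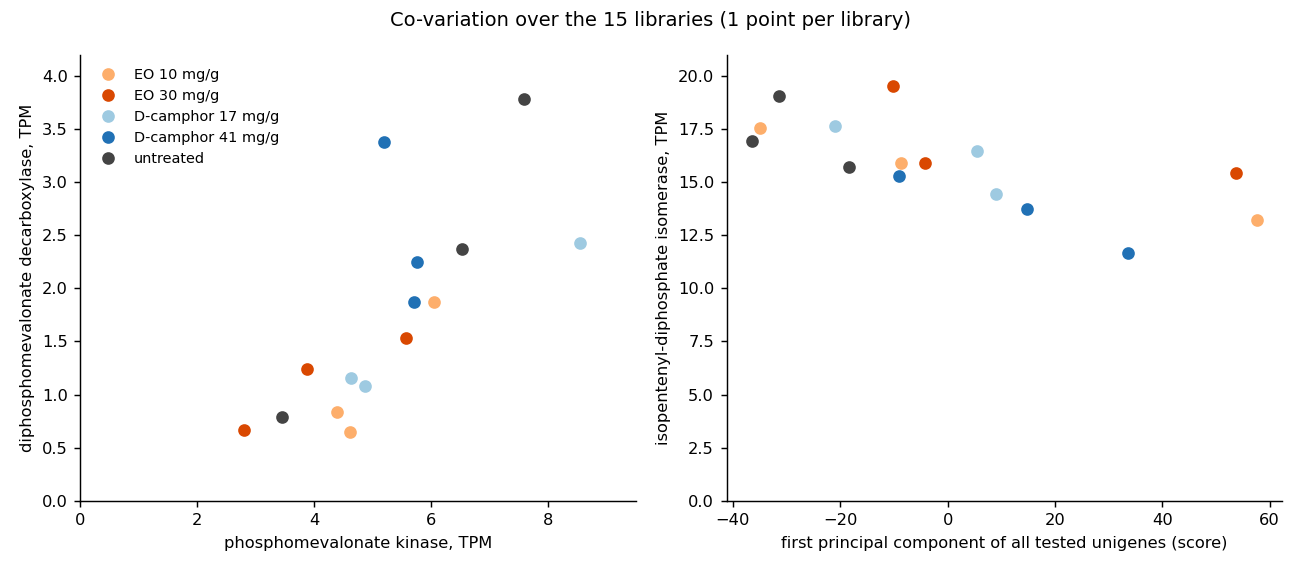
Left, diphosphomevalonate decarboxylase against phosphomevalonate kinase, both in TPM, and right, isopentenyl-diphosphate isomerase in TPM against the score on the first principal component, with 1 point per library coloured by diet. The decarboxylase is higher where the kinase is higher over the 15 libraries (r = 0.788 on the log2 scale), though not among the 3 of D-camphor at 41 mg/g, and the isomerase is lowest, at 11.64 TPM, in a library of D-camphor at 41 mg/g with a score of 33.7.

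The described unigenes whose levels were most like each tested enzyme were ranked by Pearson's r over the 15 libraries, among 9124 others, as a description. For the decarboxylase these were espin, an actin-bundling protein, and a peroxidasin-like protein, at r = 0.949 and 0.948. Isopentenyl-diphosphate isomerase was nearest to the vesicle transport protein SFT2A (r = 0.896), protein disulfide-isomerase A6 (r = 0.890), a folding enzyme of the endoplasmic reticulum, and the small GTPase Rab-32 (r = 0.882). Mevalonate kinase was nearest to subunit 3 of the conserved oligomeric Golgi complex (r = 0.875), and the first 3 unigenes beside phosphomevalonate kinase were uncharacterised proteins (r from 0.876 to 0.884). These are ranks among many candidates and carry no test.

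The 6 members under 1 TPM were led by a further isopentenyl-diphosphate isomerase, matching isoform X2 of the corn rootworm Diabrotica virgifera virgifera (TRINITY_DN15842_c0_g1). It had 0.78, 0.51 and 0.83 TPM on EO at 10 mg/g and 0.46, 0.53 and 0.32 TPM on EO at 30 mg/g. It had 0.78, 0.66 and 0.6 TPM on D-camphor at 17 mg/g and 0.32, 0.37 and 0.62 TPM on D-camphor at 41 mg/g, against 0.66, 0.78 and 0.96 TPM in untreated larvae. The higher dose of each additive lay wholly below the untreated libraries. Among the tested unigenes, 10.2% did not overlap untreated larvae on EO at 30 mg/g and 5.64% were lower without overlap. On D-camphor at 41 mg/g these shares were 9.95% and 6.54%. They hold for unigenes averaging 1 TPM or more, and this one lay under that level. With no filter the log2 difference was -0.32 on EO at 30 mg/g (standard error 0.14, unadjusted p = 0.0346, adjusted p = 0.637 by limma) and -0.33 on D-camphor at 41 mg/g (standard error 0.14, unadjusted p = 0.0332, adjusted p = 0.746 by limma), past the threshold in neither. How reads were divided between this unigene and the abundant isomerase is not given in the sources used here.

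The other 5 matched no insect and were at very low levels, with a mean of 0.0893 to 0.263 TPM in a table whose smallest step is 0.01 TPM. A partial diphosphomevalonate decarboxylase matching the spider Stegodyphus mimosarum (TRINITY_DN24170_c0_g2) was listed at 0 in 11 of 15 libraries. It stood at 0.58 and 1.4 TPM in replicates 1 and 3 of EO at 30 mg/g, at 1.37 TPM in replicate 3 of D-camphor at 17 mg/g and at 0.6 TPM in replicate 3 of D-camphor at 41 mg/g. It was listed at 0 in all libraries of EO at 10 mg/g and of untreated larvae. The decarboxylase-like unigene matching the lancelet Branchiostoma belcheri (TRINITY_DN43183_c0_g1) was listed at 0 in 5 libraries and reached 0.38 TPM in replicate 3 of EO at 30 mg/g. On that diet it had 0.16, 0.14 and 0.38 TPM, above 0.12, 0 and 0.07 TPM in untreated larvae (no filter, unadjusted p = 0.0447, adjusted p = 0.657 by limma). Of the tested unigenes, all averaging 1 TPM or more, 4.56% were higher without overlap in that comparison. EO against D-camphor gave an unadjusted p of 0.0418 and an adjusted p of 0.595 by limma. The farnesyl pyrophosphate synthase matching the sea urchin Strongylocentrotus purpuratus (TRINITY_DN12082_c0_g1), the enzyme that would build the farnesyl chain, ran from 0.03 to 0.45 TPM with overlapping diets. Its only partner in the same assembly cluster matched a nematode protein, vps-2 of Pristionchus pacificus, at a mean of 0.235 TPM.

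Both HMG-CoA synthase members came from 1 assembly cluster, so reads could have been split between them and their values are uncertain. The unigene matching the scorpion Centruroides sculpturatus (TRINITY_DN23923_c0_g1) was listed at 0 in 6 libraries and reached 0.37 TPM. The unigene matching the lancelet (TRINITY_DN23923_c0_g2) was listed at 0 in all 3 libraries of EO at 10 mg/g, had 0, 0.17 and 0.15 TPM on EO at 30 mg/g, 0.06, 0 and 0.07 TPM on D-camphor at 17 mg/g and 0, 0.13 and 0.13 TPM on D-camphor at 41 mg/g, against 0.42, 0.22 and 0.08 TPM in untreated larvae. The untreated libraries were the only group with no value at 0, and the library with the highest value was untreated. With no filter, EO at 10 mg/g against untreated larvae gave an unadjusted p of 0.0101 and an adjusted p of 0.688 by limma. For D-camphor at 17 mg/g these were 0.0316 and 0.703 by limma. Both are far below the Ips pini match, which averaged 6.98 TPM.

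**Figure D4:**
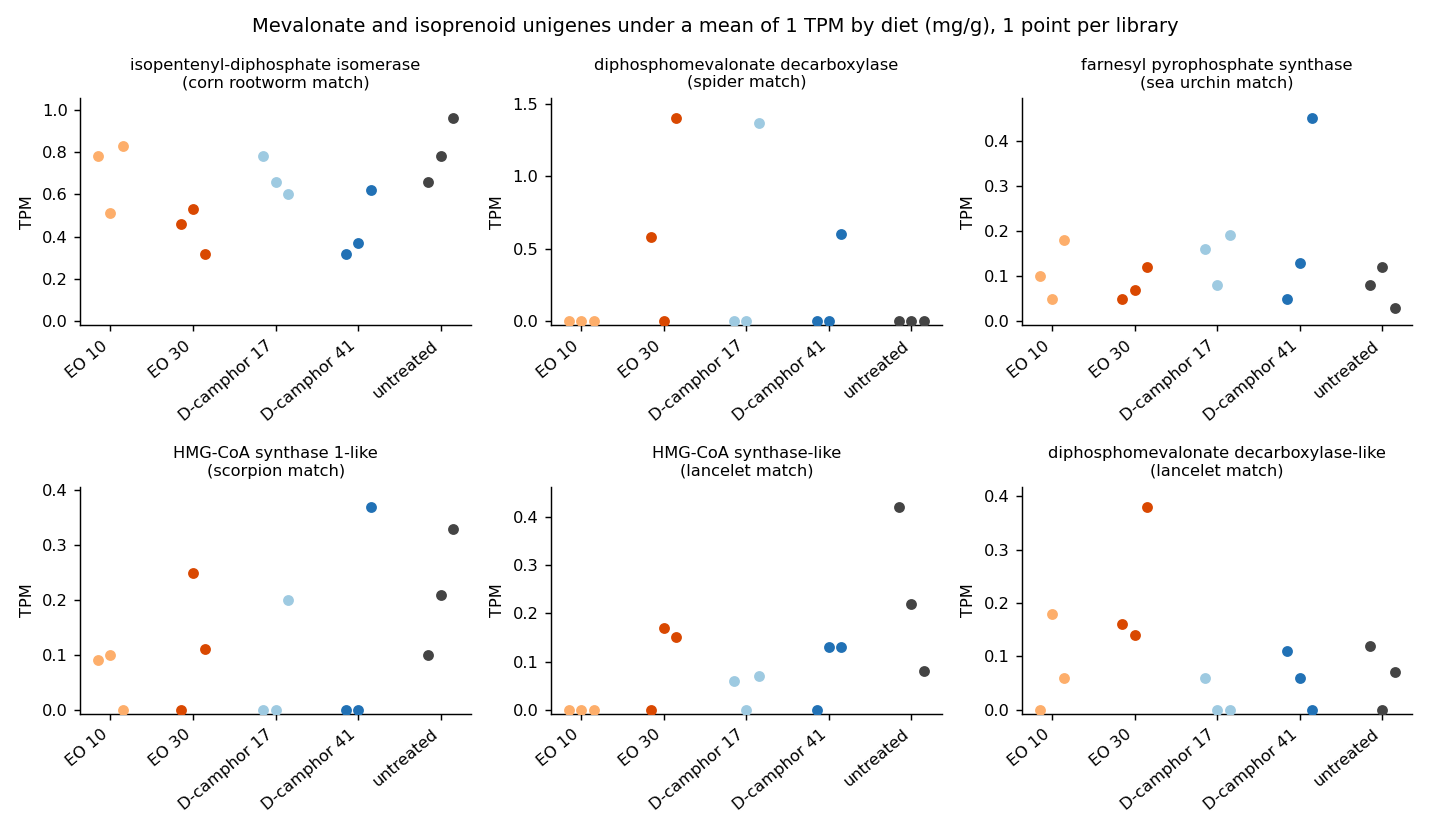
TPM of the 6 members under a mean of 1 TPM, 1 point per library, by diet in mg/g. The isomerase matching the corn rootworm lies at 0.32 to 0.53 TPM on EO at 30 mg/g and 0.32 to 0.62 TPM on D-camphor at 41 mg/g, below 0.66 to 0.96 TPM in untreated larvae, and the spider match is listed at 0 in 11 of 15 libraries.

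Unigenes that use isoprenoids or control their synthesis were found by name in 4 further lists, and 1 of those tested passed the threshold against untreated larvae. Over all tested unigenes the calls were 0.0719%, 0.184%, 0.04% and 0.016% on EO 10, EO 30, D-camphor 17 and D-camphor 41 mg/g, and 6.31%, 8.8%, 6.24% and 6.24% had an unadjusted p under 0.05. Protein prenylation attaches farnesyl or geranylgeranyl chains to proteins, and 0 of its 7 tested unigenes were called by limma on any single diet, with 1 at an unadjusted p under 0.05, on D-camphor at 41 mg/g. Its most abundant were CAAX prenyl protease 1, which trims prenylated proteins, at a mean of 15.8 TPM, and the beta subunit of geranylgeranyl transferase type-1, at 11.1 TPM. The list's median log2 difference was -0.05, 0.08, 0.09 and -0.06 in the order EO 10, EO 30, D-camphor 17 and D-camphor 41 mg/g. Among unigenes for dolichol, ubiquinone, haem A and other long chains, 0 of 9 were called by limma on any single diet (1, 2, 1 and 0 at an unadjusted p under 0.05), with medians of 0.00059, 0.09, 0.13 and 0.12. They included 4-hydroxybenzoate polyprenyltransferase of ubiquinone synthesis at 12.4 TPM and NUS1 of dolichol synthesis at 10.5 TPM. Among controllers of the sterol response or of HMG-CoA reductase, 0 of 5 were called by limma on any single diet against untreated larvae. At an unadjusted p under 0.05 by limma, 0 passed, and the medians were -0.23, -0.09, -0.02 and -0.09. The most abundant were the beta subunit of AMP-activated protein kinase at 18.9 TPM and sterol regulatory element-binding protein 1 at 12.2 TPM.

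The 1 unigene that passed belonged to the juvenile hormone list. This list held 22 tested unigenes, of which 11 were described as juvenile hormone epoxide hydrolases, which inactivate the hormone, and 9 as farnesol dehydrogenases, which oxidise farnesol on the way to it. Log2 differences above 0 were found in 21, 21, 17 and 12 of 22 on EO 10, EO 30, D-camphor 17 and D-camphor 41 mg/g, and in 21, 21, 17 and 14 with median-of-ratios scaling. The medians were 0.58, 0.94, 0.76 and 0.16, beside medians over all tested unigenes of -0.12, -0.06, 0.03 and -0.04. The share of all tested unigenes above 0 was not counted. In most of the epoxide hydrolases untreated replicate 3 was the lowest untreated library. The most abundant (TRINITY_DN41_c0_g1) had 274.18 TPM there, beside 842.35 and 573.44 TPM, while TRINITY_DN4809_c1_g1 was highest there, at 61.2 TPM. How far the counts above 0 rest on that library was not tested, and copies that vary together are not independent. Limma called 0, 1, 0 and 0 of 22 after Benjamini-Hochberg adjustment, and 4, 9, 7 and 2 of 22 had an unadjusted p under 0.05, beside the shares of all tested unigenes given above. The unigene called was an epoxide hydrolase (TRINITY_DN1820_c1_g1) with 281.67, 222.03 and 213.67 TPM on EO at 30 mg/g against 55.35, 41.07 and 29.63 TPM in untreated larvae, a log2 difference of 2.51 (standard error 0.35, adjusted p = 0.0145 by limma). Its call was lost without either of untreated replicates 2 and 3 or EO at 30 mg/g replicates 1 and 2, at adjusted p from 0.051 to 0.0817 by limma. The adjusted p was 0.0451 by limma without the 3 libraries with the highest scores on the first principal component. The farnesol dehydrogenases were abundant, with means of 1331 and 949.2 TPM for the highest pair, and 0 of 9 were called. The second of that pair (TRINITY_DN414_c0_g1) differed from untreated larvae by 1.08 on EO at 30 mg/g (adjusted p = 0.12 by limma), and passed without EO at 10 mg/g replicate 1 (adjusted p = 0.0418 by limma). That was the smallest adjusted p among 23 alternative fits, and the library left out belongs to neither group compared. These are families of similar copies, between which reads could have been divided, and the most similar protein does not show that a copy acts on juvenile hormone. Juvenile hormone acid O-methyltransferase, a marker of the corpora allata, the gland that makes the hormone, was at 0.03 to 0.83 TPM over the 15 libraries.

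**Figure D5:**
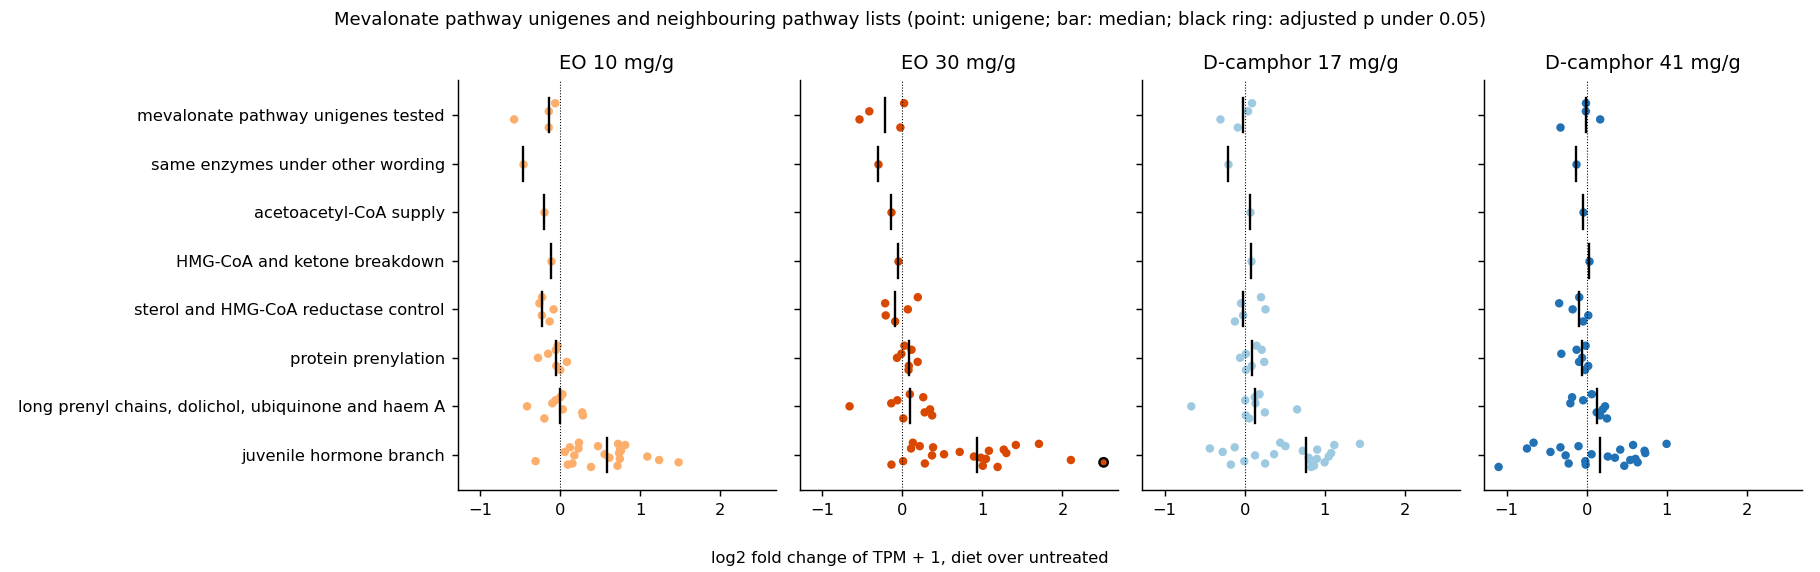
Log2 difference of TPM + 1 from untreated larvae for every tested unigene of the mevalonate group and of the lists beside it, on each terpenoid diet. The juvenile hormone branch is the list with medians of 0.58, 0.94, 0.76 and 0.16, and the 4 mevalonate pathway enzymes have medians of -0.14, -0.22, -0.02 and -0.01.

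The libraries differed in tissue markers within diets. Cuticle markers also differed between diets, with every untreated library below every library of EO at 30 mg/g and of both doses of D-camphor. Cuticle and chitin synthase unigenes, 41 of 53 with a mean of at least 1 TPM, summed to 343 to 33411 TPM on EO at 10 mg/g, 996 to 17555 TPM on EO at 30 mg/g, 1036 to 4896 TPM on D-camphor at 17 mg/g and 2766 to 21692 TPM on D-camphor at 41 mg/g, against 361 to 859 TPM in untreated larvae. Fat body markers, 4 of 13 with a mean of at least 1 TPM, ranged from 1297 to 7213 TPM over the terpenoid diets and from 3074 to 4461 TPM in untreated larvae. Midgut, muscle, haemocyte and nervous system markers were detected in every library, and their ranges on each diet overlapped those of untreated larvae. Some differed between additives. Haemocyte sums were 13.24 to 15.69 TPM on D-camphor at 17 mg/g, above 8.86 to 11.97 TPM on EO at 10 mg/g and 9.05 to 13.15 TPM on EO at 30 mg/g. Nervous system sums were 35.16 to 36.13 TPM on D-camphor at 17 mg/g, above 27.8 to 32.37 TPM on EO at 30 mg/g. The part of tissue makeup in the low isomerase values on D-camphor at 41 mg/g was not tested.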

How the data were processed

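Whole-body RNA was sequenced from 15 libraries, 3 for each of 5 diets, grouped by the treatment in the labels. Per the labels' protocols, TRIzol was used for extraction and NEBNext kits for the libraries. The authors deposited TPM, normalised for transcript length and library total, for 34486 unigenes, of which 18488 carry a description; columns that were not used numbered 0. Not given in the sources used here: assembler, aligner and counting method. TPM holds no counts, so depth and its counting error are unknown. Nothing says that replicates are separate animals, so p-values measure only the spread between these libraries. No 2 columns were identical.

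TPM was taken as log2(TPM + 1), and 12510 unigenes averaging 1 TPM or more were tested in limma 3.58.1 (R 4.3.3), with 1 mean per diet, a variance trend, 10 residual and 2.12 prior degrees of freedom, two-sided tests and Benjamini-Hochberg adjustment over all tested unigenes at 0.05. Differences are on the log2(TPM + 1) scale and understate changes of low unigenes. The fit was tested on simulated data. Correlations used log2(TPM + 1) and two-sided permutation tests. Every member is named, and of each list the called unigenes or the 2 of highest mean. The unigenes most like the 4 tested members, rather than like the HMG-CoA synthase and farnesyl synthase members under 1 TPM, were chosen after the values were seen, as were the unigenes matching Ips pini. Members and lists were chosen with earlier results of these data known. The alternatives changed the pseudocount (to 0.1), the filter (none, or 5 TPM), the scaling (median-of-ratios), the weights (array quality), the block (replicate number) and the libraries in the fit (the compared groups alone, each library left out and, added after the data were seen, 3 libraries left out together). No sequences of these unigenes were used here.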

Additional observations from a re-analysis of the deposited data

How the results depend on the processing

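In each of the 9 comparisons, 0 of the tested members were called by limma under any alternative that was run. These were 23 per comparison, and 22 for the averaged diets and for any difference among the diets, which were not fitted on the compared groups alone. The alternatives include 15 that leave out 1 library and 1, chosen after seeing the data, that leaves out together the 3 libraries with the top scores on the first component. Of 724 refitted member differences between diets, 44 changed sign, none past the threshold. The lowest adjusted p of isopentenyl-diphosphate isomerase on D-camphor at 41 mg/g was 0.487, with array quality weights, and its log2 difference ran from -0.41 to -0.23. A filter at 5 TPM left 5522 unigenes and did not hold diphosphomevalonate decarboxylase. The replicate numbers gave no clear pairing over all tested unigenes. Same-numbered libraries of different diets had a median correlation of deviations of 0.0242, with 10 of 30 pairs over 0.1 and a highest value of 0.559. Pairs of other numbers had a median of 0.0198, with 21 of 60 over 0.1 and a highest value of 0.439. Of 15 libraries, 6 were closest to one of their own number. Pairing in the pathway unigenes alone was not tested. With the replicate block, 0 members were called, and the unigenes called numbered 12 on EO at 30 mg/g and 1 on D-camphor at 17 mg/g, against 23 and 5 without it.

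The numbers of all unigenes called, which set the background, moved widely. Over the alternatives they ran from 1 to 42 on EO at 10 mg/g (9 in the report), 8 to 55 on EO at 30 mg/g (23), 1 to 60 on D-camphor at 17 mg/g (5), 0 to 50 on D-camphor at 41 mg/g (2), 7 to 83 for the mean of the 4 diets (11), 0 to 5 for the dose step of EO (1), 0 to 46 for that of D-camphor (0), 4 to 11 for EO against D-camphor (6) and 8 to 63 for any difference (9). The cause was not tested. With 3 libraries per diet and depth unknown, intervals such as 0.394 to 1.14 for TPM + 1 of diphosphomevalonate decarboxylase on EO at 10 mg/g relative to untreated larvae leave moderate differences unresolved.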
